A study of Mus musculus with 12 samples.

Results

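The genes described here are 31 genes of fatty acid oxidation and of the peroxisome proliferator-activated receptors (PPARs), measured by RNA sequencing in murine intestinal epithelium. They were taken by gene symbol from the 55487 genes of the count table, and all 31 were among the 19581 genes that passed the filter on low counts. By role they are 3 PPARs, 3 genes of fatty acid uptake and lipid droplets, 4 acyl-CoA synthetases and thioesterases, 3 genes of the carnitine shuttle, 8 genes of the mitochondrial beta-oxidation spiral, 3 enzymes for unsaturated acyl-CoA, 3 genes of the electron transfer flavoprotein system and 4 genes of peroxisomal beta-oxidation. The set was put together as fatty acid oxidation, ketogenesis and PPAR targets, but none of the 31 is an enzyme of ketone body synthesis.

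The study compared 4 groups of 3 libraries. SI tissue and LI tissue are freshly isolated crypts of the small intestine (SI) and the large intestine (LI), with 1 mouse per library. SI monolayers and LI monolayers are crypt cells that had grown as a flat epithelial layer for 24 h, with wells pooled per library. All mice were C57BL/6, no transgene or oncology drug is named for these libraries, and the methods give male or female animals of 6 to 10 weeks of age. The crypts for SI monolayers came from the jejunum and were released with EDTA, whereas those for LI monolayers were also digested with collagenase, dispase and DNase, so region and isolation cannot be told apart. The methods take the large intestine for culture from the mice that gave the jejunum, so SI and LI libraries can share animals, and the 3 pooled monolayer libraries of a region need not be 3 animals. The monolayers were kept in a medium with Wnt3a, EGF, Noggin and R-spondin, which the tissue groups did not see. Before that, the methods seed the crypts in a medium that holds 3 small-molecule inhibitors besides growth factors. For LI monolayers, 1 of the 3 was also present during digestion.

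Cells burn a fatty acid by first binding it to coenzyme A, then passing it into the mitochondrion on carnitine, and then shortening it in a repeated cycle of dehydrogenation, hydration, dehydrogenation and thiolysis. Peroxisomes shorten very long and branched chains, and mitochondria can turn the released acetyl units into ketone bodies. PPARs are nuclear receptors that bind fatty acids and their derivatives, pair with a retinoid X receptor on DNA and switch on many of these genes; in the gut this programme is best known from absorptive enterocytes, which take up dietary fat.

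Libraries held 59016196 to 76216530 counts, so that 3 counts correspond to 0.0394 to 0.0508 CPM, which are counts scaled to the library total. Transcripts of the mitochondrial genome took 4.56% to 9.16% of the counts in SI tissue and 2.25% to 2.59% in LI tissue, against 0.472% to 0.559% in SI monolayers and 0.704% to 0.750% in LI monolayers. The epithelial markers (8 genes, of which 4 rose in SI, and 3 rose and 1 fell in LI) summed to 12756 to 13776 CPM in SI crypts against 27806 to 28392 CPM in monolayers, and in LI to 22412 to 23132 CPM against 35109.6 to 35804 CPM, with none at 0. The higher sums came mostly from the keratins Krt8, Krt18 and Krt19, while mean Epcam stood at 1516 CPM in SI crypts and 1291 CPM after culture, and in LI at 1933 and 1388 CPM. The absorptive enterocyte markers (10 genes, of which 4 fell in SI, and 2 fell and 1 rose in LI) summed to 14616 to 19534 CPM in SI crypts and to 8204 to 8544 CPM after culture, and in LI to 1663 to 2195 CPM and then 665 to 729 CPM. The LI sum went down mainly through Krt20 (mean 1460 and 351 CPM), and the median log2 fold change of that list in LI was 0.59. The colonocyte markers (8 genes, of which 3 fell in SI and 6 in LI) summed to 1047 to 1341 CPM in SI crypts and to 253 to 274 CPM after culture, and in LI to 5161 to 6924 CPM and then 855 to 872 CPM. Goblet cell markers (6 genes, of which 3 fell in SI and 6 in LI) summed to 5395 to 9996 CPM in SI crypts and to 4838 to 4989 CPM after culture, and in LI to 15052 to 18922 CPM and then 1409 to 1573 CPM. Paneth cell markers (6 genes, of which 1 fell in each region) ranged from 4504 to 23210.4 CPM over the SI crypt libraries and from 6777 to 7258 CPM after culture, and in LI from 439 to 980.5 CPM and then 60.5 to 79.3 CPM. Stem and cycling cell markers (8 genes, of which 1 fell in SI and 3 in LI) summed to 1567 to 2045 CPM in SI crypts and 644 to 665 CPM after culture, with Olfm4 at a mean of 1214 and then 18.8 CPM, and in LI to 444 to 492 CPM and then 476 to 498 CPM. Lymphocyte markers (8 genes) fell in both regions, 8 of 8 each time, from 114 to 162 CPM to 7.36 to 8.43 CPM in SI and from 24.7 to 32.2 CPM to 1.68 to 3.15 CPM in LI. In bulk libraries such as these, fewer cells of a type and less RNA per cell cannot be told apart. The p-values measure the spread between these libraries, which were tested as separate samples although the labels do not say which share an animal.

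Levels are given as the authors' normalized counts, which are counts divided by 1 size factor per library, in the order of library 1, 2 and 3. Means carry the SD over 3 libraries. Fold changes are log2 values from edgeR's quasi-likelihood test, with Benjamini-Hochberg adjusted p-values over all tested genes. The standard error after each was derived from that test, as the absolute log2 value divided by the square root of the F statistic. A gene was called when its adjusted p was under 0.05 and its level differed by at least 2-fold, and "rose" and "fell" are kept for called genes. Gene positions are those of GRCm38.

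**Figure D1:**
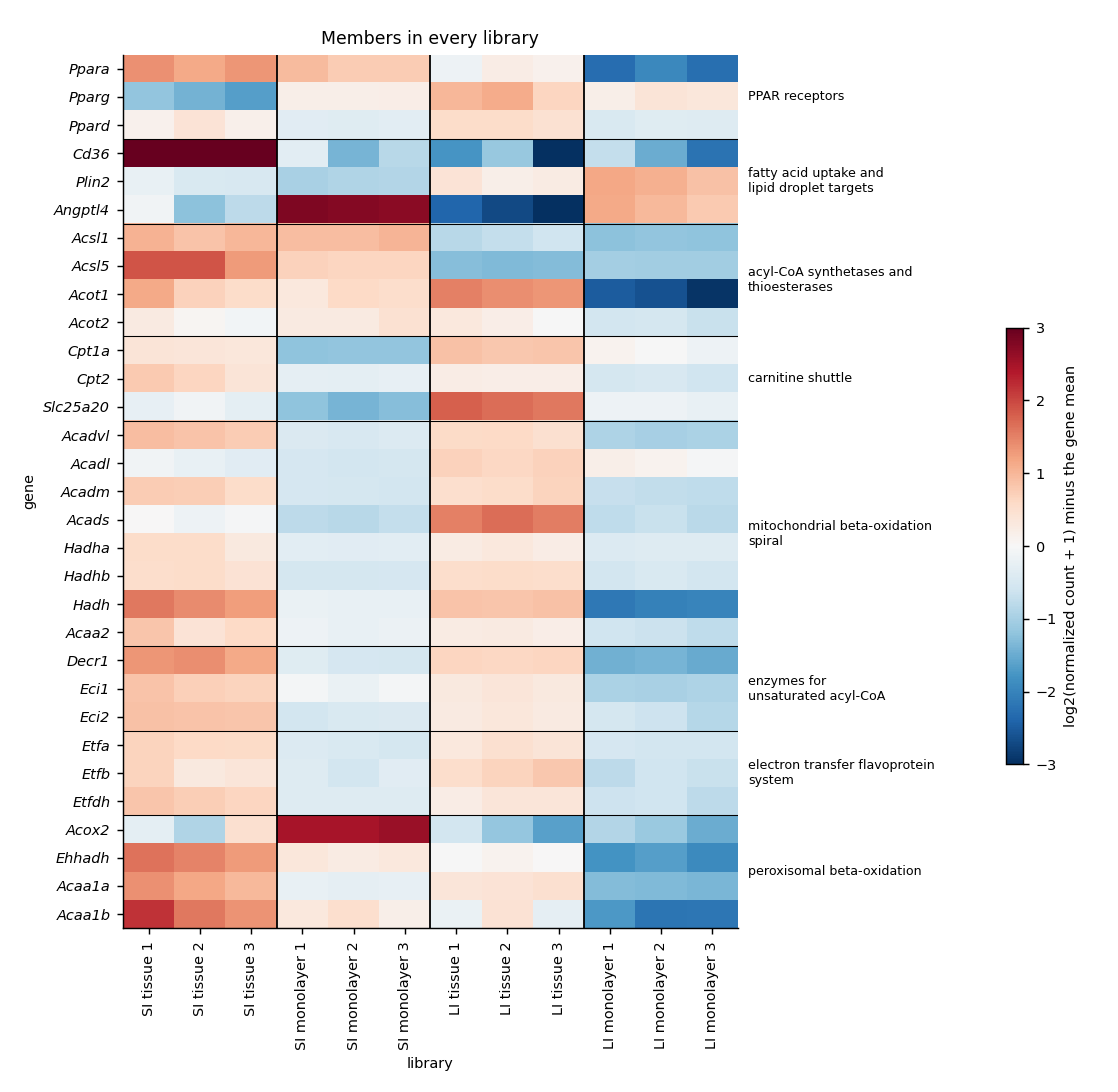
Heat map of the 31 members (rows, grouped by role) in the 12 libraries (columns), as log2 of the normalized count plus 1 after subtraction of each gene's mean over the libraries; colours stop at 3 units on either side. Tissue columns are redder than the monolayer columns of the same region over most rows of the mitochondrial roles, while Angptl4 is redder in the monolayers.

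Compared per kilobase of exon, the member with the highest level in SI was Acsl5, a long-chain acyl-CoA synthetase, at 16280.4 normalized counts per kb in tissue and 7870.4 in monolayers. In LI tissue the highest were Etfa, a subunit of the flavoprotein that collects electrons from the acyl-CoA dehydrogenases (10919 per kb), Acadl, the long-chain acyl-CoA dehydrogenase (10676 per kb), and Acads, the short-chain one (10145 per kb). Acadl led in LI monolayers at 7143 per kb. The lowest were Acox2 in SI tissue (52.3 per kb) and Cd36 in the other 3 groups (13.8 per kb after culture in SI, 6.00 in LI crypts and 9.25 after culture in LI). Etfb, the partner subunit of Etfa, was counted far below it, at 667 against 12825 per kb in SI tissue, and 58.2% of its exon bases, summed over 2 genes, are shared with other annotated genes on the same strand. How reads from shared bases were assigned is not given in the sources used here.

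**Figure D2:**
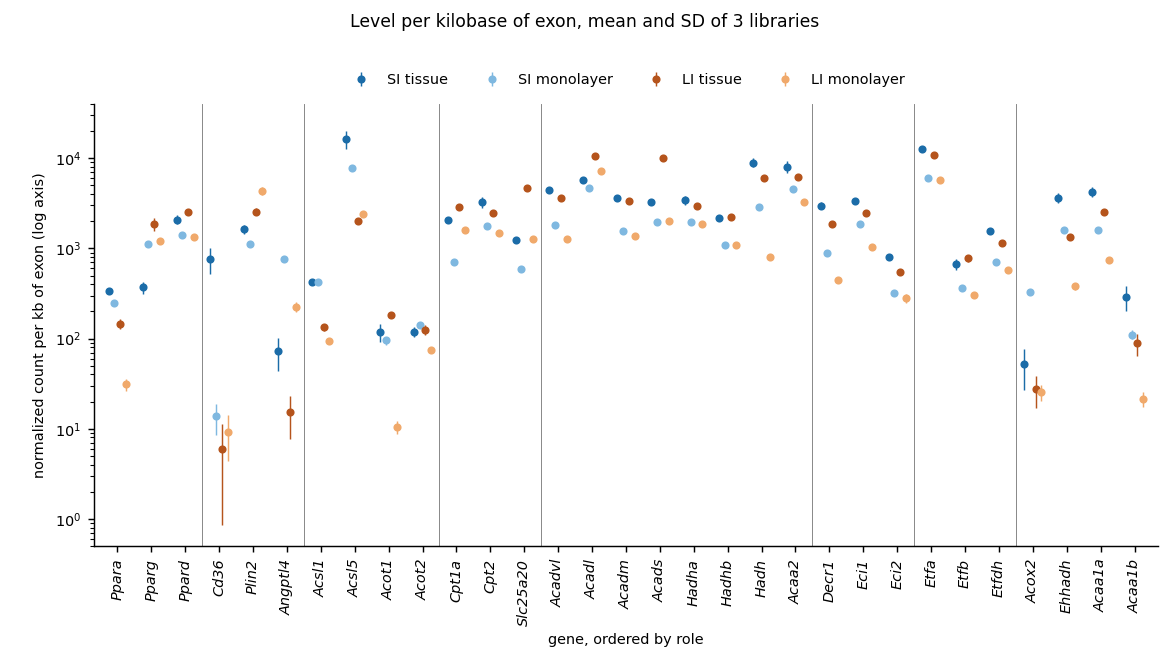
Mean and SD (3 libraries) of the normalized count per kb of exon for each member in the 4 groups, on a log axis, with members ordered by role and roles set apart by grey lines. Acsl5 in SI tissue is the highest point and Cd36 in LI tissue the lowest, and the carnitine shuttle, the mitochondrial spiral and the unsaturated acyl-CoA enzymes show tissue above monolayer in each region.

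The first question was how the genes of fatty acid oxidation differ between monolayers and the tissue they were grown from. In SI, 14 of 31 members fell and 3 rose, where 16.4% of all tested genes fell and 9.71% rose. In LI, 13 of 31 members fell and 1 rose, where 23.5% of all tested genes fell and 14.5% rose. The median log2 fold change of the members was -0.85 in SI and -0.91 in LI, beside -0.05 in each for the whole table. By the adjusted p alone, 25 members were lower and 3 higher in SI monolayers, against 30.6% and 29% of the table. In LI monolayers 26 were lower and 3 higher, against 36.6% and 32.1%.

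Of the 31, 8 fell in both regions: Slc25a20, Acadvl, Acadm, Hadh, Decr1, Ehhadh, Acaa1a and Acaa1b. Only Angptl4 rose in both. A further 6 fell in SI without a call in LI (Cd36, Acsl5, Cpt1a, Eci2, Etfa and Etfdh), 5 fell in LI without a call in SI (Ppara, Acot1, Acads, Eci1 and Etfb), and Pparg and Acox2 rose in SI without a call in LI. The other 9 members (Ppard, Plin2, Acsl1, Acot2, Cpt2, Acadl, Hadha, Hadhb and Acaa2) were called in neither region. No member was called in opposite directions.

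**Figure D3:**
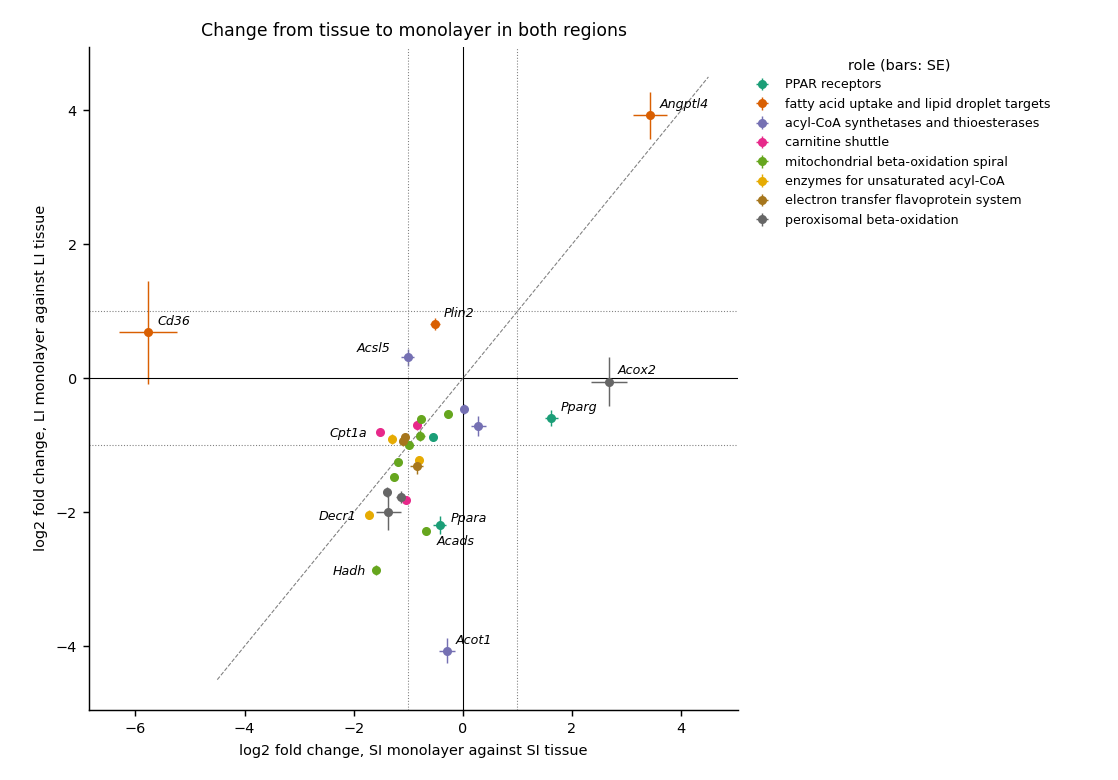
Log2 fold change of each member from tissue to monolayer in SI (horizontal axis) and LI (vertical axis), with standard errors as bars, dotted lines at a 2-fold difference and a dashed line of equal change; 12 members are labelled. Most points lie below 0 on both axes, Angptl4 sits alone at the upper right, and Cd36, Acot1, Acox2 and Pparg lie far from the dashed line.

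The 17 members grouped here by role as mitochondrial (shuttle, spiral, unsaturated acyl-CoA enzymes and electron transfer) shared 1 direction. The name is that of the grouping, and where in the cell each product acts was not examined. Each of the 17 was lower in monolayers by the adjusted p in both regions, and each was lower in all 3 monolayer libraries than in any tissue library of its region, a separation seen downwards for 35.7% of the table in SI and for 40% of it in LI. A decrease of at least 2-fold was reached by 9 of the 17 in SI and 8 in LI, with median log2 fold changes of -1.05 and -1.0. All 17 stayed lower by the adjusted p under every alternative tried, including the fits that each omitted 1 library. The summed absorptive enterocyte, colonocyte and goblet cell markers and the share of mitochondrial transcripts were lower in the same libraries. The stem and cycling sum was lower in SI through Olfm4, the only 1 of its 8 genes that fell there. The summed epithelial markers were higher, and the part of all these markers and of the mitochondrial share in the result was not tested.

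The carnitine shuttle carries long acyl chains through the mitochondrial membranes. Its translocase Slc25a20 (chr9:108662088-108684641, plus strand) stood at 5937, 6542 and 5741 normalized counts in the SI tissue libraries and at 3022, 2688 and 2878 in SI monolayers. In LI it stood at 24344, 22320.1 and 21019 in tissue and 6290.1, 6363 and 5972 in monolayers. Every monolayer library was below every tissue library of its region, and LI tissue was far above the other groups. Slc25a20 fell 2.07-fold in SI (log2 -1.05 ± 0.06, adjusted p = 6.6e-10) and 3.52-fold in LI (log2 -1.81 ± 0.06, adjusted p = 4.5e-13). Without SI tissue library 2 or SI monolayer library 2, its SI change was -0.997 or -0.97, just short of 2-fold.

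Cpt1a, the outer membrane transferase that sets the rate of entry, fell in SI from 15976 ± 299.7 to 5453 ± 76.1 normalized counts (log2 -1.52 ± 0.06, adjusted p = 3.55e-12). In LI Cpt1a stood at 22182 ± 518 in tissue and 12320.4 ± 1019.9 in monolayers (log2 -0.80 ± 0.06, adjusted p = 2.2e-09), less than a 2-fold difference. Cpt2, the inner membrane transferase, had log2 values of -0.85 ± 0.07 in SI and -0.70 ± 0.07 in LI.

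In the mitochondrial spiral, the first step is done by acyl-CoA dehydrogenases of different chain length. Acadvl, for very long chains (chr11:70010183-70015411, minus strand), held 12511, 11935 and 11174 normalized counts in SI tissue and 4840.4, 4721 and 4959 in SI monolayers. The LI values were 9860.5, 10048 and 9258 in tissue and 3444, 3293 and 3397 in monolayers. Tissue was above monolayers in both regions, with no overlap. Acadvl fell 2.39-fold in SI (log2 -1.26 ± 0.05, adjusted p = 8.84e-12) and 2.79-fold in LI (log2 -1.48 ± 0.05, adjusted p = 5.26e-13). Its exons overlap those of Dvl2 on the opposite strand over 42.9% of their bases, and the methods do not give whether counting used strand.

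Acadm, for medium chains (chr3:153922357-153944632, minus strand), held 14807, 14715 and 12876 normalized counts in SI tissue and 6162, 6073 and 5944 in SI monolayers. In LI tissue it held 12497, 12789.8 and 13958, and in LI monolayers 5457, 5296 and 5176. Tissue libraries of the 2 regions overlapped, and LI monolayers lay below SI monolayers. Acadm fell 2.28-fold in SI (log2 -1.19 ± 0.06, adjusted p = 1.09e-10) and 2.39-fold in LI (log2 -1.26 ± 0.06, adjusted p = 2.26e-11).

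Acads, for short chains (chr5:115110299-115119346, minus strand), held 7766, 6894 and 7487 normalized counts in SI tissue and 4496, 4349 and 4671 in SI monolayers. In LI it went from 22096, 24487 and 22476 in tissue to 4573, 4832 and 4375 in monolayers. The LI tissue libraries stood about 3 times above those of SI tissue, while the monolayers of the 2 regions overlapped. Acads fell 4.86-fold in LI (log2 -2.28 ± 0.06, adjusted p = 3.28e-14). In SI its log2 value was -0.68 ± 0.06 (adjusted p = 7.42e-08), short of 2-fold. Acadl, the long-chain dehydrogenase, had the smallest difference of the spiral in both regions, with log2 values of -0.27 ± 0.06 in SI and -0.53 ± 0.06 in LI.

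Hadh (chr3:131233419-131272101, minus strand), the short-chain hydroxyacyl-CoA dehydrogenase of the third step, had the largest fall of the spiral in both regions. Its normalized counts were 49837, 44063 and 39543 in SI tissue and 14505, 14333 and 14192 in SI monolayers. In LI they were 29857, 29417 and 30590.0 in tissue and 3735, 4052 and 4180.0 in monolayers. LI monolayers were the lowest group by a wide margin. Hadh fell 3.03-fold in SI (log2 -1.60 ± 0.07, adjusted p = 1.66e-11) and 7.28-fold in LI (log2 -2.86 ± 0.07, adjusted p = 1.32e-14).

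The trifunctional protein, which does the later steps on long chains, is made of Hadha and Hadhb. Hadha had log2 values of -0.76 ± 0.06 in SI and -0.60 ± 0.06 in LI. Hadhb lay at the 2-fold line in both, at -0.98 in SI and -1.0 in LI, and passed it in 4 other settings in SI and 13 in LI. In SI it did so without SI tissue library 3. In LI it passed without LI tissue library 1 and without any 1 of the 6 monolayer libraries, with values down to -1.12 over the 13 settings. Acaa2, the mitochondrial thiolase, had -0.78 ± 0.08 in SI and -0.86 ± 0.08 in LI.

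Double bonds in unsaturated chains are handled by Decr1, a dienoyl-CoA reductase, and by the isomerases Eci1 and Eci2. Decr1 (chr4:15917240-15945507, minus strand) held 11921, 12408 and 10372 normalized counts in SI tissue and 3681, 3336 and 3300.0 in SI monolayers. It held 7335, 7253 and 7351 in LI tissue and 1745, 1786 and 1649 in LI monolayers. The groups did not overlap within a region, and LI monolayers were again lowest. Decr1 fell 3.28-fold in SI (log2 -1.71 ± 0.06, adjusted p = 3.34e-12), the largest fall of the 17 mitochondrial members there, and 4.10-fold in LI (log2 -2.04 ± 0.07, adjusted p = 1.88e-13). Eci2 fell in SI (log2 -1.30 ± 0.07) and stood at -0.91 ± 0.07 in LI, where it passed 2-fold without LI monolayer library 1 or 2. Eci1 fell in LI (log2 -1.22 ± 0.06) and stood at -0.81 ± 0.06 in SI.

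The electron transfer flavoprotein (Etfa and Etfb) hands electrons to the respiratory chain through Etfdh. In SI, Etfa fell (log2 -1.05 ± 0.05) and so did Etfdh (-1.10 ± 0.06), while Etfb stood at -0.84 ± 0.12. In LI the order was different: Etfb fell, from 904 ± 88.7 to 353 ± 24.1 normalized counts (log2 -1.31 ± 0.12, adjusted p = 6.18e-08), while Etfa stood at -0.88 ± 0.05 and Etfdh at -0.94 ± 0.06. None of these regional differences was a call in the test of the difference itself. The Etfb values also carry the limit given above, that 58.2% of its exon bases are shared with other annotated genes. Etfa in SI was at -0.99 without SI monolayer library 3, and Etfdh in LI passed 2-fold without any 1 of the SI monolayer libraries or without LI monolayer library 1 or 2.

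Of the 4 peroxisomal members, 3 fell in both regions and the 4th, Acox2, rose in SI. Ehhadh (chr16:21761287-21787807, minus strand), the bifunctional enzyme that hydrates and dehydrogenates, stood at 12164, 11006 and 9510.0 normalized counts in SI tissue and 4934, 4655 and 4874 in SI monolayers. LI libraries held 3866, 4201 and 3929.7 in tissue and 1122, 1244 and 1036 in monolayers. No groups overlapped, and SI monolayers lay just above LI tissue. Ehhadh fell 2.21-fold in SI (log2 -1.14 ± 0.08, adjusted p = 5.32e-09) and 3.42-fold in LI (log2 -1.77 ± 0.08, adjusted p = 2.12e-11).

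Acaa1a and Acaa1b are the peroxisomal thiolases. Acaa1a (chr9:119339676-119350299, plus strand) held 21493, 18688 and 16381 normalized counts in SI tissue and 7138, 6945 and 7060.5 in SI monolayers. Its LI values were 10690.3, 11103 and 11687 in tissue and 3385, 3329.7 and 3253 in monolayers. Acaa1a fell 2.61-fold in SI (log2 -1.38 ± 0.08, adjusted p = 2.17e-10) and 3.25-fold in LI (log2 -1.70 ± 0.08, adjusted p = 8.62e-12).

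Acaa1b (chr9:119148023-119157093, minus strand) was the rarer thiolase, at 293 against 4271 normalized counts per kb in SI tissue. Its normalized counts were 772, 516 and 436 in SI tissue and 214, 244 and 194 in SI monolayers. In LI they were 149, 229.7 and 143 in tissue and 51.0, 36.7 and 37.6 in monolayers. The libraries of each tissue group spread more than for Acaa1a, but tissue and monolayers did not overlap. Acaa1b fell 2.57-fold in SI (log2 -1.36 ± 0.22, adjusted p = 6.46e-05) and 4.01-fold in LI (log2 -2.00 ± 0.26, adjusted p = 3.81e-06). Of the 100-base stretches in its transcripts, 19.3% also occur in Acaa1a, so that such a stretch alone does not identify its gene. How the read pairs from there were assigned was not examined.

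Acox2 (chr14:8225511-8259353, minus strand), an oxidase of branched chains and bile acid intermediates, ran against the other peroxisomal members. It stood at 172, 113 and 296 normalized counts in SI tissue and at 1174, 1178 and 1279 in SI monolayers. Its LI levels were 145, 93.4 and 67.8 in tissue and 114, 96.4 and 75.1 in monolayers. The SI monolayer libraries were several times above all others, and the LI groups overlapped each other. Acox2 rose 6.37-fold in SI (log2 2.67 ± 0.33, adjusted p = 3.01e-05), and its LI value was -0.05 ± 0.36 (adjusted p = 0.916).

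**Figure D4:**
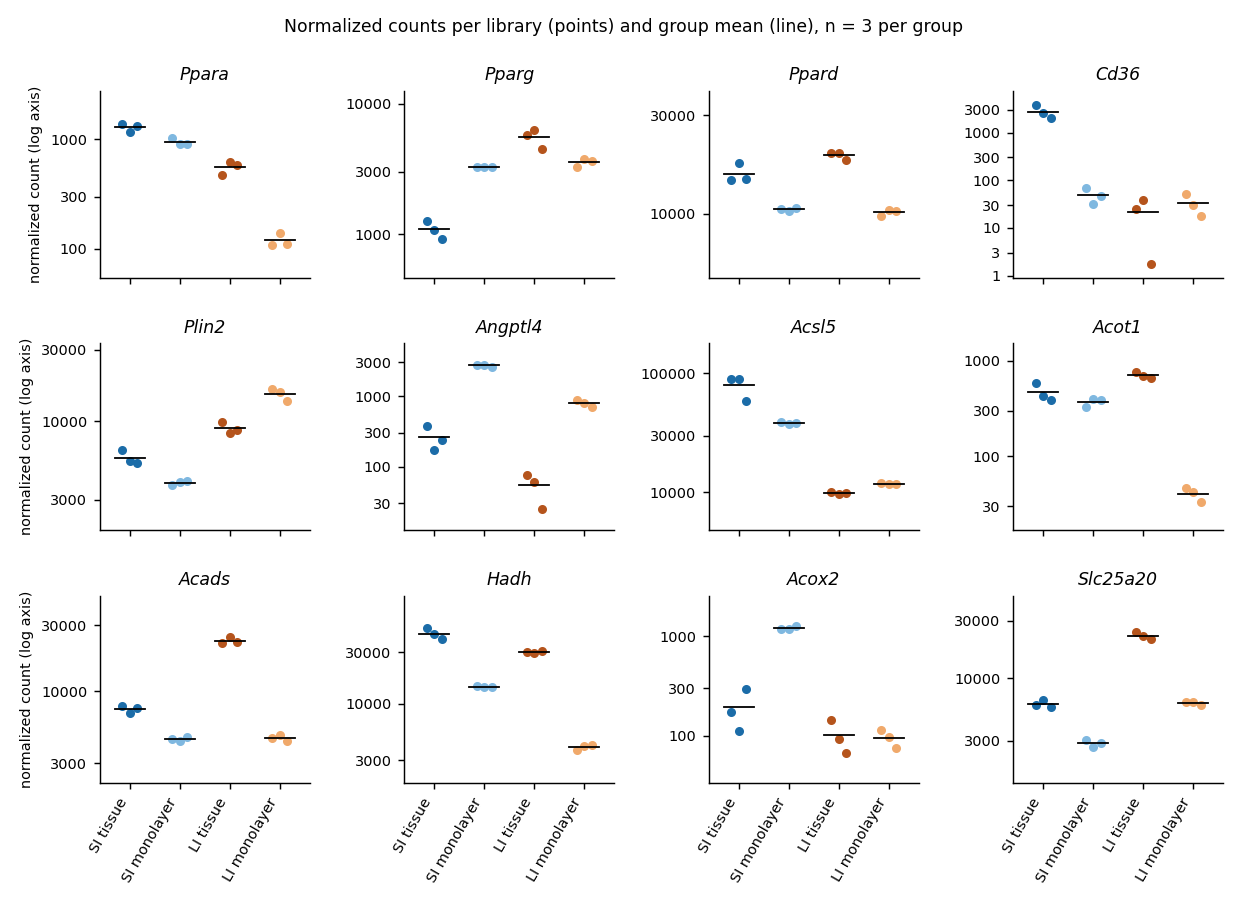
Normalized counts of 12 members in each library (points, in the order of library 1 to 3) with the group mean (line), on log axes that differ between panels; each colour marks 1 group. Pparg is lowest in SI tissue, Acox2 is highest in SI monolayers, Cd36 is high only in the SI tissue libraries, and Acot1 is low only in the LI monolayer libraries.

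The 3 PPARs differed in level and in change. Ppara (chr15:85734983-85802819, plus strand), the form best known for driving fatty acid oxidation, stood at 1388, 1175 and 1328 normalized counts in SI tissue and 1026, 899 and 904 in SI monolayers. In LI the values were 476, 624 and 579 in tissue and 108, 139 and 109.7 in monolayers. The 4 groups did not overlap, and the LI monolayers were far below the rest. Ppara fell 4.58-fold in LI (log2 -2.20 ± 0.13, adjusted p = 3.86e-10), while its SI value was -0.43 ± 0.12 (adjusted p = 0.00502), less than a 2-fold difference.

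Pparg (chr6:115360951-115490399, plus strand), the form known for fat storage and abundant in colonocytes, stood at 1262, 1084 and 922 normalized counts in SI tissue and 3269, 3252 and 3287 in SI monolayers. Its LI values were 5777, 6268 and 4529 in tissue and 3266, 3753 and 3629.6 in monolayers. SI tissue was lowest and LI tissue highest, and the monolayers of both regions lay between them and close together. Pparg rose 3.08-fold in SI (log2 1.62 ± 0.12, adjusted p = 9.29e-08). In LI its log2 value was -0.59 ± 0.12 (adjusted p = 0.000505), lower by less than 2-fold.

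Ppard (chr17:28232700-28301474, plus strand), the widely expressed form, was the most abundant PPAR per kb in every group, at 2083 and 1398 normalized counts per kb in SI crypts and monolayers and at 2556 and 1347 in those of LI. Its normalized counts were 14524, 17695 and 14731 in SI tissue and 10478, 10339.5 and 10699 in SI monolayers. In LI they were 19604, 19722 and 18298 in tissue and 9732, 10382 and 10259 in monolayers. Both monolayer groups lay below both tissue groups and overlapped each other. The log2 values were -0.54 ± 0.06 in SI (adjusted p = 1.96e-06) and -0.88 ± 0.06 in LI (adjusted p = 3.5e-09), less than 2-fold each.

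Among the genes of uptake and storage, Angptl4 and Cd36 had the largest changes of the whole set in SI. Angptl4 (chr17:33773750-33781830, minus strand) encodes a secreted inhibitor of lipoprotein lipase and is a classical PPAR target. It stood at 372, 171 and 235 normalized counts in SI tissue and 2797, 2740.0 and 2623 in SI monolayers. In LI it stood at 77.1, 60.4 and 25.0 in tissue and 889.5, 798 and 697 in monolayers. The lowest monolayer library of each region was above the highest tissue library by several times. Angptl4 rose 10.8-fold in SI (log2 3.43 ± 0.31, adjusted p = 5.36e-06) and 15.2-fold in LI (log2 3.93 ± 0.35, adjusted p = 3.79e-06), the largest rise in both regions.

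Cd36 (chr5:17781690-17888801, minus strand), a fatty acid translocase of the plasma membrane, stood at 3726, 2548 and 2012 normalized counts in SI tissue and 69.1, 32.0 and 47.4 in SI monolayers. LI libraries held 24.4, 38.4 and 1.79 in tissue and 52.0, 29.8 and 17.8 in monolayers. Only SI tissue had high values, and LI tissue library 3 was below the level of 3 counts. Cd36 fell 54.6-fold in SI (log2 -5.77 ± 0.53, adjusted p = 1.09e-05), the largest decrease of any member in either region. In LI the groups overlapped (log2 0.69 ± 0.77, adjusted p = 0.451), and the log2 value was 1.42, also not called, without LI tissue library 2.

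Cd36 is also made by endothelium, macrophages and adipocytes. In SI, the endothelial markers (8 genes, 6 tested, of which 5 fell) summed to 4.14 to 5.69 CPM in tissue and 1.03 to 1.57 CPM in monolayers, where Cdh5, Gpihbp1 and Emcn were at 0. Macrophage markers (8 genes, 7 tested, of which 3 fell and 2 rose) summed to 24.6 to 78.8 CPM in SI tissue and 97.7 to 103 CPM in SI monolayers, with Cd163 at 0 in the latter. That sum was mostly Lyz2 (mean 44.1 CPM in SI tissue and 42.1 in SI monolayers) and, in monolayers, Mrc1 (1.19 and 54.9 CPM). Adipocyte markers (8 genes, 3 of them also in the list of PPAR targets; 3 tested, of which 1 fell) summed to 31.3 to 38.6 and 28.6 to 33.2 CPM, with Adipoq and Lep at 0 in both groups, and also Plin1, Retn and Fabp4 in monolayers. The adipocyte sum was almost wholly Cidec (mean 34.4 CPM in SI tissue and 30.3 in SI monolayers). The part of these markers, and of the lower absorptive enterocyte markers, in the result was not tested.

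Plin2 (chr4:86648386-86670060, minus strand) coats lipid droplets. It stood at 6399.7, 5414 and 5273 normalized counts in SI tissue and 3755, 3948 and 4011 in SI monolayers. Its LI levels were 9876, 8320.3 and 8759 in tissue and 16521, 15624 and 13699 in monolayers. Monolayers were below tissue in SI and above tissue in LI, with no overlap in either. The log2 values were -0.51 ± 0.09 in SI (adjusted p = 0.000107) and 0.81 ± 0.08 in LI (adjusted p = 5.36e-07), and neither reached 2-fold.

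The synthetases bind fatty acids to coenzyme A and the thioesterases release them again. Acsl5 (chr19:55251938-55297720, plus strand) stood at 89437, 89539 and 58587 normalized counts in SI tissue and 39047, 37715 and 38083 in SI monolayers. In LI the values were 10007, 9613 and 9891 in tissue and 11907, 11713 and 11864 in monolayers. SI tissue library 3 was lower than the other SI tissue libraries, and no groups overlapped. Acsl5 fell 2.02-fold in SI (log2 -1.01 ± 0.12, adjusted p = 1.67e-05), and its LI value was 0.31 ± 0.12 (adjusted p = 0.039), higher by less than 2-fold. The SI value lay at the line of 2-fold: it was -0.99 to -0.92 in a fit of the SI groups alone and without any 1 of SI tissue libraries 1 and 2 and the 6 monolayer libraries.

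Acot1 (chr12:84009490-84018371, plus strand), a cytosolic acyl-CoA thioesterase, stood at 588, 427 and 389 normalized counts in SI tissue and 332, 402 and 385 in SI monolayers. In LI it stood at 763, 700.2 and 662 in tissue and 46.2, 42.5 and 33.6 in monolayers. The SI groups overlapped, while in LI every monolayer library was far below every tissue library. Acot1 fell 16.8-fold in LI (log2 -4.07 ± 0.19, adjusted p = 1.07e-11), the largest decrease of the set in that region, and its SI value was -0.29 ± 0.15 (adjusted p = 0.114). Of its 100-base stretches, 9.32% are shared with Acot2, and 17.1% of those of Acot2 with Acot1.

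Acot2, the mitochondrial thioesterase, stood at 259.8 ± 34.2 normalized counts in SI tissue and 309 ± 23.9 in SI monolayers, and at 275 ± 32.8 and 163 ± 9.23 in LI (log2 0.29 ± 0.14 and -0.71 ± 0.15). Acsl1, another long-chain synthetase, stood at 4474 ± 310.3 and 4453 ± 158 in SI and at 1401 ± 121 and 989 ± 14 in LI (log2 0.03 ± 0.07 and -0.46 ± 0.07). Acsl1, Acot1 and Acot2 were the 3 members that did not pass the adjusted p in SI, and Cd36 and Acox2 the 2 that did not in LI.

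The second question was how the regions differ. In tissue, 7 of 31 members were called higher in SI than in LI and 3 lower, where 11.6% and 11.1% of all tested genes were. By the adjusted p alone these were 20 and 8 members, against 29.2% and 24.7% of the table. In monolayers, 11 members were called higher in SI than in LI and 3 lower, where 12.4% and 8.88% of all tested genes were. By the adjusted p alone these were 19 and 4 members, against 27% and 24.9% of the table. The median log2 difference of SI against LI was 0.43 in tissue and 0.51 in monolayers, beside 0.06 and 0.02 for all tested genes.

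Called higher in SI in both preparations were Ppara, Angptl4, Acsl1, Acsl5, Ehhadh and Acaa1b, and called lower in both was Slc25a20. Acsl1 had log2 differences of 1.71 ± 0.07 in tissue and 2.20 ± 0.07 in monolayers. For Acsl5 they were 3.05 ± 0.13 and 1.72 ± 0.12, for Ehhadh 1.49 ± 0.08 and 2.12 ± 0.08, and for Acaa1b 1.76 ± 0.23 and 2.40 ± 0.26. Ppara had 1.25 ± 0.12 in tissue and 3.02 ± 0.14 in monolayers. Angptl4 was 4.91-fold higher in SI tissue than in LI tissue (adjusted p = 0.000442) and 3.49-fold higher in SI monolayers than in LI monolayers (adjusted p = 0.000394). Slc25a20, in turn, was 3.61-fold higher in LI tissue (log2 -1.85 ± 0.06, adjusted p = 1.2e-12) and 2.13-fold higher in LI monolayers (log2 -1.09 ± 0.06, adjusted p = 6.13e-10).

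Pparg, Cd36 and Acads were called between regions in tissue without a call in monolayers. Cd36 had the largest difference of all, 132-fold higher in SI tissue (log2 7.04 ± 0.59, adjusted p = 6.83e-06), and a monolayer value of 0.58 ± 0.67. Without LI tissue library 2, its log2 difference in tissue was 7.77. Pparg was 4.94-fold higher in LI tissue (log2 -2.30 ± 0.12, adjusted p = 4.77e-09) and had -0.09 ± 0.12 between monolayers. Acads was 3.03-fold higher in LI tissue (log2 -1.60 ± 0.06, adjusted p = 4.64e-12), and the monolayers had adjusted p = 0.996. A p that misses the threshold does not show that these monolayer levels were equal.

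Another 7 members were called between regions in monolayers without a call in tissue. Higher in SI monolayers were Acox2 (13.0-fold, log2 3.70 ± 0.35, adjusted p = 4.75e-06), Acot1 (9.32-fold, log2 3.22 ± 0.19, adjusted p = 5.88e-10), Hadh (log2 1.88 ± 0.07), Acaa1a (1.11 ± 0.08) and Decr1 (1.02 ± 0.06). Higher in LI monolayers were Plin2 (log2 -1.94 ± 0.09) and Cpt1a (-1.15 ± 0.06). Decr1 was at the line of 2-fold and stood at 0.99 with DESeq2 and with either other filter on low counts. Acox2 in tissue was also near it, at 0.98 ± 0.35, and passed it without SI tissue library 2 or LI tissue library 1, at 1.26 to 1.30. Acot2 in monolayers stood at 0.96 ± 0.15 and passed 2-fold without library 1 or 2 of either monolayer group, by values up to 1.02. The 4 peroxisomal members were all called higher in SI monolayers, with a median log2 difference of 2.26, and 2 of the 4 were in tissue, with a median of 1.23. Of the 17 mitochondrial members, none was called higher in SI tissue and 2 lower, where 11.6% and 11.1% of all tested genes were. In SI monolayers 2 of the 17 were called higher and 2 lower. For all tested genes these shares were 12.4% and 8.88%.

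The difference between regions in the change from tissue to monolayer was tested directly, as the interaction of region and preparation. The SI change minus the LI change was called above 0 for 6 members and below 0 for 3, where 11.4% and 8.51% of all tested genes were. By the adjusted p alone these were 17 and 5 members, against 23.3% and 23% of the table. It was above 0 for Acot1 (log2 difference 3.78 ± 0.24, adjusted p = 5.03e-09), Acox2 (2.72 ± 0.49, adjusted p = 0.000841), Pparg (2.21 ± 0.17, adjusted p = 2.96e-07), Ppara (1.77 ± 0.18, adjusted p = 7.55e-07), Acads (1.60 ± 0.09, adjusted p = 7.23e-10) and Hadh (1.27 ± 0.10, adjusted p = 3.47e-08). It was below 0 for Cd36 (-6.46 ± 0.95, adjusted p = 0.00047), Acsl5 (-1.32 ± 0.17, adjusted p = 6.05e-05) and Plin2 (-1.32 ± 0.12, adjusted p = 5.07e-07). For Hadh this is a smaller fall in SI, and for Pparg, Plin2 and Acsl5 the values went in opposite directions in the 2 regions. For Cd36 it was -7.19 without LI tissue library 2 and -5.84 without LI monolayer library 1. Angptl4 had an interaction of -0.49 ± 0.46 (adjusted p = 0.425). Acot2 was at 1.0 and passed 2-fold in 12 other settings, 8 of which left out a library (SI tissue 1, LI tissue 3 or any monolayer library), by values up to 1.14.

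The promoters of the members were read for the PPAR response element, since many of the members fell together. RefSeq windows of 300 bases (GRCm38.p6, 250 bases before to 50 after a transcript start) were given for 28 of the 31 members, 32 windows in all, with no entry for Angptl4, Acaa2 and Decr1. The full element AGGTCANAGGTCA, searched on both strands, was found in 0 of the 32 windows and in 0.0396% of all 32851 windows. With so low a share over all windows, 0 of 32 does not set the members apart from other genes. Bases outside the windows were not read, so elements further away would be missed. A relaxed form, made of 2 copies of GGNCA with any 2 bases between them, was found in 2.08% of all windows and in those of 1 member, Acox2, as GGACACAGGACA at chr14:8259064-8259075. The single hexamer AGGTCA, which the full element and so its matches contain, was found in 16.3% of all windows and in 7 of the 32 (21.9%), of the members Pparg, Cd36, Plin2, Cpt1a, Acadvl and Acadm. Shown here are the 250 bases before the start for the 3 of these windows whose upstream part holds no annotated exon: Acadvl and Acadm, which fell in both regions, and Cd36, which fell in SI. All 3 genes are on the minus strand, the sequences run 5′ to 3′ along it, and capitals mark the hexamer, read as AGGTCA in Acadvl and as its reverse complement TGACCT in the others.
Acadvl, chr11:70015429-70015678: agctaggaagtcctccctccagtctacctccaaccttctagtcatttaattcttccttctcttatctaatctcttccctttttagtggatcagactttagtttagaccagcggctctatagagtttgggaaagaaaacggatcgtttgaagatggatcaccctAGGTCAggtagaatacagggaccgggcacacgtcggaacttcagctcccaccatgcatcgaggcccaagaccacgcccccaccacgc
Acadm, chr3:153944644-153944893: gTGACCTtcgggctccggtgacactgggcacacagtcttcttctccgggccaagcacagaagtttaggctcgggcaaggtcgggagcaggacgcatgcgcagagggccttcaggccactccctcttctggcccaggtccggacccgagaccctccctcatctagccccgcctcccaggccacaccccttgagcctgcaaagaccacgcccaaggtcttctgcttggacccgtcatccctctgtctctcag
Cd36, chr5:17835897-17836146: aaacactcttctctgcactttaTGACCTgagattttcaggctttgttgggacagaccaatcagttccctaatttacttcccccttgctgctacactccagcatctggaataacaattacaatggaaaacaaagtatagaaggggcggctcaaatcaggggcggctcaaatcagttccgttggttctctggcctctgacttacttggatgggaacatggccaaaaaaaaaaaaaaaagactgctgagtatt
The hexamer begins 87 bases before the start in Acadvl, 249 in Acadm and 228 in Cd36. The Cd36 window belongs to a transcript start inside the gene, whose span on this strand begins at chr5:17888801. These matches describe the letters of these windows, and binding was not measured.

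A wider look at the pathway was taken with 84 other genes in 6 lists, of which 76 were tested. In SI, 28 of the 76 fell and 1 rose (Acsl3), with a median log2 fold change of -0.78. In LI, 36 fell and 4 rose (Lpin2, Vnn1, Me1 and Hilpda), with a median of -0.90. Of all tested genes, 16.4% fell and 9.71% rose in SI, and 23.5% fell and 14.5% rose in LI, with medians of -0.05. Acsl3, Vnn1, Me1 and Hilpda were named after their values were seen.

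**Figure D5:**
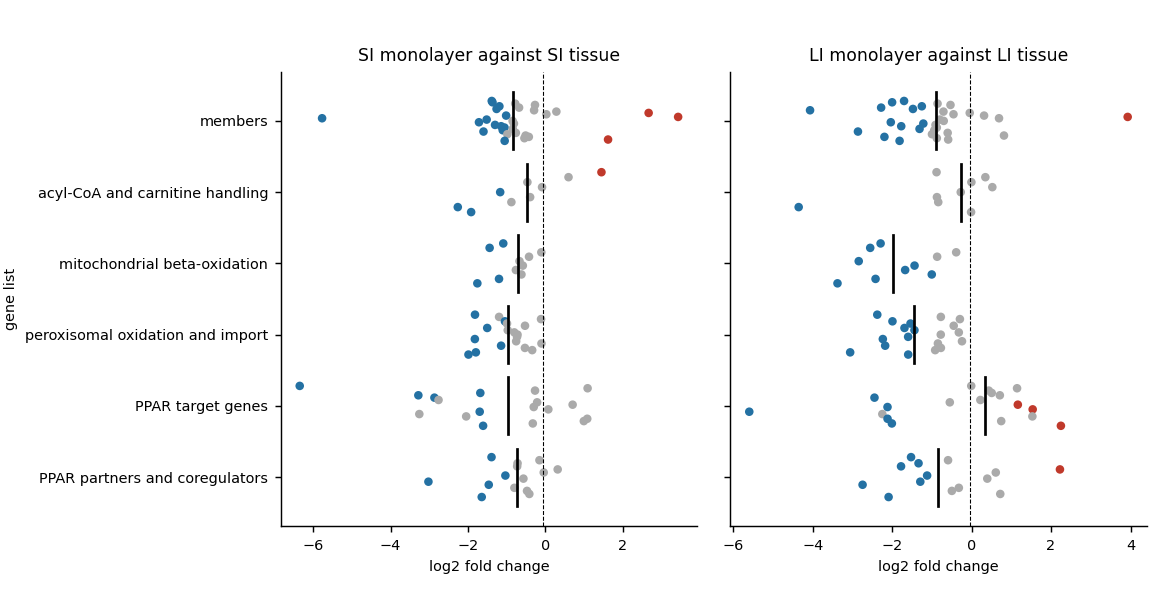
Log2 fold change from tissue to monolayer in SI (left) and LI (right) for the 31 members and for the tested genes of 5 other lists of the pathway (points), with each list's median (thick line) and the median of all tested genes (dashed line). Red points rose, blue points fell and grey points were not called; the list medians lie left of the dashed line in SI, and in LI all but that of the PPAR target genes do.

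Of the genes of ketone body metabolism, 4 are described. Acat1, the thiolase that joins acetyl units, fell in both regions (log2 -2.34 ± 0.06 in SI and -2.65 ± 0.06 in LI). Bdh1, a hydroxybutyrate dehydrogenase (-1.46 ± 0.06), and the monocarboxylate carrier Slc16a1 (-1.74 ± 0.07) fell in LI. In SI, Bdh1 stood at 18143 ± 709 normalized counts in tissue and 8922 ± 146 in monolayers, near the 2-fold line. Slc16a1 stood at 8873 ± 794 and 5739 ± 256 there. Oxct1, which uses ketone bodies in place of making them, had 0.29 ± 0.09 in SI and 0.43 ± 0.09 in LI. Bdh1, Slc16a1 and Oxct1 were named after their values were seen.

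The genes listed here as further mitochondrial enzymes (10 genes, all tested) fell in 4 cases in SI and 8 in LI, with medians of -0.71 and -1.98. Pccb, a subunit of the propionyl-CoA carboxylase for odd-chain remnants, fell, with -1.76 ± 0.07 in SI and -3.38 ± 0.07 in LI. Echs1, the short-chain hydratase that precedes Hadh in the spiral, fell in LI from 17063 ± 884 to 2304 ± 213 normalized counts (log2 -2.84 ± 0.07) and stood at -0.67 ± 0.06 in SI. Acad11, another acyl-CoA dehydrogenase, fell in both (-1.44 ± 0.09 and -2.55 ± 0.10).

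Peroxisomal genes (20, of which 19 were tested) fell in 7 cases in SI and 10 in LI, and none rose. Their medians were -0.97 and -1.44. Phyh, the hydroxylase of branched chains, fell in both regions (-1.80 ± 0.07 in SI and -3.06 ± 0.07 in LI), as did the sterol carrier and thiolase gene Scp2 (-1.99 ± 0.08 and -1.60 ± 0.08).

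Acyl-CoA and carnitine handling (10 genes, 9 tested) had 3 genes that fell and 1 that rose in SI and 1 that fell in LI, with medians of -0.46 and -0.28. Slc27a2, an acyl-CoA synthetase of very long chains, fell in SI (-2.26 ± 0.15) and LI (-4.36 ± 0.21). Slc27a4, a fatty acid transport protein of enterocytes, fell from 45032 ± 9738 to 11631 ± 196 normalized counts in SI (log2 -1.92 ± 0.13) and stood at -0.01 ± 0.12 in LI.

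Of the other PPAR target genes (23, of which 18 were tested), 6 fell and 0 rose in SI (median -0.97). Calls went both ways in LI, where 5 fell and 3 rose (median 0.32). The fatty acid binding protein genes fell in SI, Fabp1 from 77943 ± 22893 to 7819 ± 146 normalized counts (log2 -3.28 ± 0.76) and Fabp2 from 125498 ± 45712 to 16791 ± 442 (log2 -2.87 ± 0.29). In LI, Fabp2 fell (log2 -2.45 ± 0.29) and so did the monoglyceride lipase Mgll (-5.60 ± 0.38). Partners and coregulators (15 genes, 14 tested) had 5 that fell in SI (median -0.72), and 7 that fell and 1 that rose in LI (median -0.86). Ppargc1a, a coactivator of mitochondrial genes, fell in SI (-3.02 ± 0.13) and LI (-1.29 ± 0.13), as did its relative Ppargc1b (-1.46 ± 0.13 and -2.75 ± 0.14) and the mitochondrial deacetylase Sirt3 (-1.64 ± 0.11 and -2.09 ± 0.11). Lpin2, a phosphatidate phosphatase, rose in LI from 2411 ± 533 to 10886 ± 222 normalized counts (log2 2.22 ± 0.12) and stood at 0.32 ± 0.12 in SI.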

How the data were processed

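Paired-end reads of 12 libraries (freshly isolated crypts and 24 h monolayers) were aligned by the authors to GRCm38 with STAR 2.7.9a and counted on GENCODE genes with featureCounts 2.0.2. The authors deposited raw counts per gene, and a second table whose signal is the same counts after scaling each library by 1 size factor from DESeq2 (version given in the methods as 3.13). Whether strand or both mates were counted is not given in the sources used here. Among genes with low but nonzero counts, 73.4% to 77.4% of the counts in each library were even numbers. A count therefore need not stand for 1 sequenced fragment.

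Counts were tested with edgeR 4.0.16 in R 4.3.3 (filterByExpr, TMM, robust quasi-likelihood fit of 4 group means), with Benjamini-Hochberg adjustment over 19581 genes. Levels per kb used exon lengths of GENCODE vM21. Alternatives were DESeq2 1.42.0, upper quartile scaling, other filters, no fold minimum, the groups compared alone, the replicate block and each library left out. Per-library values are given for the PPARs and for members called in both regions or in the interaction, and of each other list the 2 called genes of at least 5 CPM with the largest change per region, except that some genes of the lists are not reported here. Members and lists were chosen with earlier results of these data known.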

Additional observations from a re-analysis of the deposited data

Results flagged for a closer look

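The change from tissue to monolayer differed between SI and LI for 9 of the 31 members, by the interaction term of edgeR's quasi-likelihood test at an adjusted p under 0.05 and a log2 difference of at least 1. Given as the SI change minus the LI change on the log2 scale, the values were 1.77 for Ppara, 2.21 for Pparg, -6.46 for Cd36, -1.32 for Plin2, -1.32 for Acsl5, 3.78 for Acot1, 1.60 for Acads, 1.27 for Hadh and 2.72 for Acox2. The 2 values of largest size rest on groups with few counts on 1 side. Cd36 stood at 24.4, 38.4 and 1.79 normalized counts in the LI tissue libraries, and Acot1 at 46.2, 42.5 and 33.6 in the LI monolayers. Cd36 was not tested when at least 10 counts were required in every library.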

How the results depend on the processing

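Without the minimum fold change, 28 members were called in SI, 29 in LI, 28 between tissues, 23 between monolayers and 22 in the interaction, in place of 17, 14, 10, 14 and 9. With upper quartile normalization, 2 in place of 1 of the genes of acyl-CoA and carnitine handling were called in LI, and the median of all genes moved by -0.12 on the log2 scale there. Without 1 library at a time, the counts were 15 to 18 in SI, 14 to 17 in LI, 10 to 11 between tissues, 14 to 15 between monolayers and 9 to 10 in the interaction. The relaxed motif was found in 1 member and the single hexamer in 6, in place of 0 for the full element. No member that was called changed its direction under DESeq2, upper quartile normalization, another filter on low counts, a fit of the groups compared, the replicate block or without 1 library, and the calls that were lost or gained had log2 values near the 2-fold line.

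Replicate numbers are shared between groups, but no source ties a number to an animal, and they gave no sign of pairing: deviations of same-numbered libraries correlated at -0.052 to 0.056. With the replicate block, 17, 15, 10, 14 and 10 members were called.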
